A study of Mus musculus with 18 samples.

Results

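Monocytes and marrow macrophages are the mature cells of the mononuclear phagocyte line, and their marker genes were followed here in sorted bone marrow progenitors of lupus-prone and control mice. The set holds 10 genes, taken by symbol: Lyz2, F13a1, Fn1, Ms4a6c, Mpeg1, Cd68, C1qa, C1qb, Adgre1 and Vcam1. All 10 were found once in each deposited table, among 19780 genes measured in LSK and 18428 in CMPs. LSK (Lin- Sca-1+ c-Kit+ cells, the stem and progenitor compartment) were profiled by RNA sequencing in 12 samples and CMPs (common myeloid progenitors) in 6, always 3 per group. All mice were female. The lupus-prone mice were NZBW/F1, the first-generation cross of NZB and NZW, which develops autoantibodies and nephritis spontaneously, and were prediseased at 12 weeks (F1-P) or had overt lupus with proteinuria at 28 to 36 weeks (F1-L). The controls were C57BL/6 mice of 12 weeks (B6-Y) and 28 to 36 weeks (B6-O), profiled as LSK only. No group carried a transgene, an induced deletion or a drug treatment. Disease and age differ together between F1-L and F1-P and cannot be told apart in that comparison, and the strains came from different suppliers.

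Monocytes arise from myeloid progenitors in the marrow, leave through the blood and express lysozyme, coagulation factor XIII and fibronectin. Marrow macrophages stay in place, clear dying cells and expelled erythroid nuclei, make the C1q chains of the complement system and carry the F4/80 antigen and VCAM-1, through which they hold progenitors and erythroblasts. Mature cells of both kinds carry CD11b or CD16/32, and the LSK gate left out cells stained for CD11b, Gr-1, Ter119, B220 or CD16/32.

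Levels are given as CPM, read counts relative to a library size that the authors had scaled, and the LSK and CMP tables were scaled separately, so no level was tested between them. Every library held between 20001328 and 28493747 reads. LSK identity genes (Kit, Ly6a, Cd34 and others, 7 in all) summed to 1367 to 2529 CPM over the LSK libraries. By group the sum was 1367 to 1679 CPM in F1-L, 1661.5 to 2108 in F1-P, 1949 to 2417 in B6-Y and 1670.5 to 2529 in B6-O. Several libraries also held RNA of genes that mark mature cells, and which cells made it was not tested. The summed level of 11 neutrophil genes (S100a8, S100a9, Ly6g and others) ran from 301 CPM in F1-P replicate 1 to 12373 CPM in F1-L replicate 1, the next highest LSK library being B6-O replicate 3 with 10719 CPM. In CMPs it was 6453 and 8442 CPM in F1-P replicates 2 and 3, against 315 CPM in F1-P replicate 1 and 64.2 to 431 CPM in F1-L. Immunoglobulin genes took 16.8 to 36.6% of the reads in NZBW/F1 LSK and 0.301 to 4.76% in C57BL/6 LSK. Results that rest on the libraries standing apart are given below with and without them. In sorted bulk samples, fewer cells of a type and less RNA per cell cannot be told apart.

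The promoters of the markers are shown first, as a description of their sequence. RefSeq start sites (GRCm38.p6) were on hand for 6 of the 10 genes: Lyz2, F13a1, Ms4a6c, Mpeg1, Cd68 and C1qb. The 150 bases before each start were searched on both strands for AGGAAGT, a core bound by PU.1, the ETS factor of myeloid cells, and by other ETS factors. The motif was chosen with these sequences in view. It was found before a start of 4 of the 6 genes, Lyz2, C1qb, Ms4a6c and the second of 2 starts of F13a1, and was not in the windows of Cd68 or Mpeg1. Over all 32851 promoter windows of that length, 5.07% held it. That share is per window, while the count of 4 is per gene and takes either start of F13a1. As the motif was chosen from these sequences, the count cannot be read against that share, and enrichment was not tested. In F13a1 the match lay 36 to 30 bases before the second start, inside the gene. The stretches with a match outside the gene are printed on the strand of the gene, 5′ to 3′, with the motif in capitals (ACTTCCT where it lies on the other strand).
Lyz2, chr10:117282322-117282422, minus strand: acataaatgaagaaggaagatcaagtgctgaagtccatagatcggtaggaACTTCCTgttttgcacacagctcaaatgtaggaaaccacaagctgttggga
C1qb, chr4:136886201-136886350, minus strand: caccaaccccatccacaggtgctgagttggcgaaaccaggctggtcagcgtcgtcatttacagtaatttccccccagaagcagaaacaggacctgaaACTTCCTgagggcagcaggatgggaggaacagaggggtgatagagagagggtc
Ms4a6c, chr19:11469218-11469365, plus strand: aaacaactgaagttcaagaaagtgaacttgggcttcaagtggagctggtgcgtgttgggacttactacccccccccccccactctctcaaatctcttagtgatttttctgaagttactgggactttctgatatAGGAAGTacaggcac
The match began 100 bases before the RefSeq start of Lyz2, 53 before that of C1qb and 17 before that of Ms4a6c. The printed stretches of Lyz2 (101 bases) and Ms4a6c (148 bases) end where the annotated gene begins, short of the RefSeq start. Of the genes with a match, Lyz2 and C1qb were separated between F1-L and F1-P LSK, and Ms4a6c and F13a1 overlapped. Cd68 and Mpeg1, without a match, overlapped too. Whether the motif bears on the levels was not tested. A match is a description of the sequence and says nothing of binding.

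Per kilobase of exon, Lyz2 had the highest mean level of the 10 genes in every group, and Mpeg1 the second highest. In LSK of F1-L mice, mean CPM per kilobase was 623 for Lyz2, 49.1 for Mpeg1, 15.7 for Cd68, 14.7 for F13a1 and 11.1 for Ms4a6c. It was 7.79 for Fn1, 5.41 for C1qa, 4.36 for C1qb, 2.77 for Adgre1 and 2.04 for Vcam1. In F1-P the lower end of the order changed, with Fn1 at 0.537, Vcam1 at 0.469 and Adgre1 at 0.337 CPM per kilobase, below C1qb at 1.24 and C1qa at 1.17. The depth behind these levels differed widely, as C1qa and C1qb each had between 12 and 227 reads in an LSK library and Lyz2 had 1927 to 38192. Neighbours in the order, such as C1qa and C1qb or Cd68 and F13a1 in F1-L, had overlapping replicates on this scale.

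**Figure D1:**
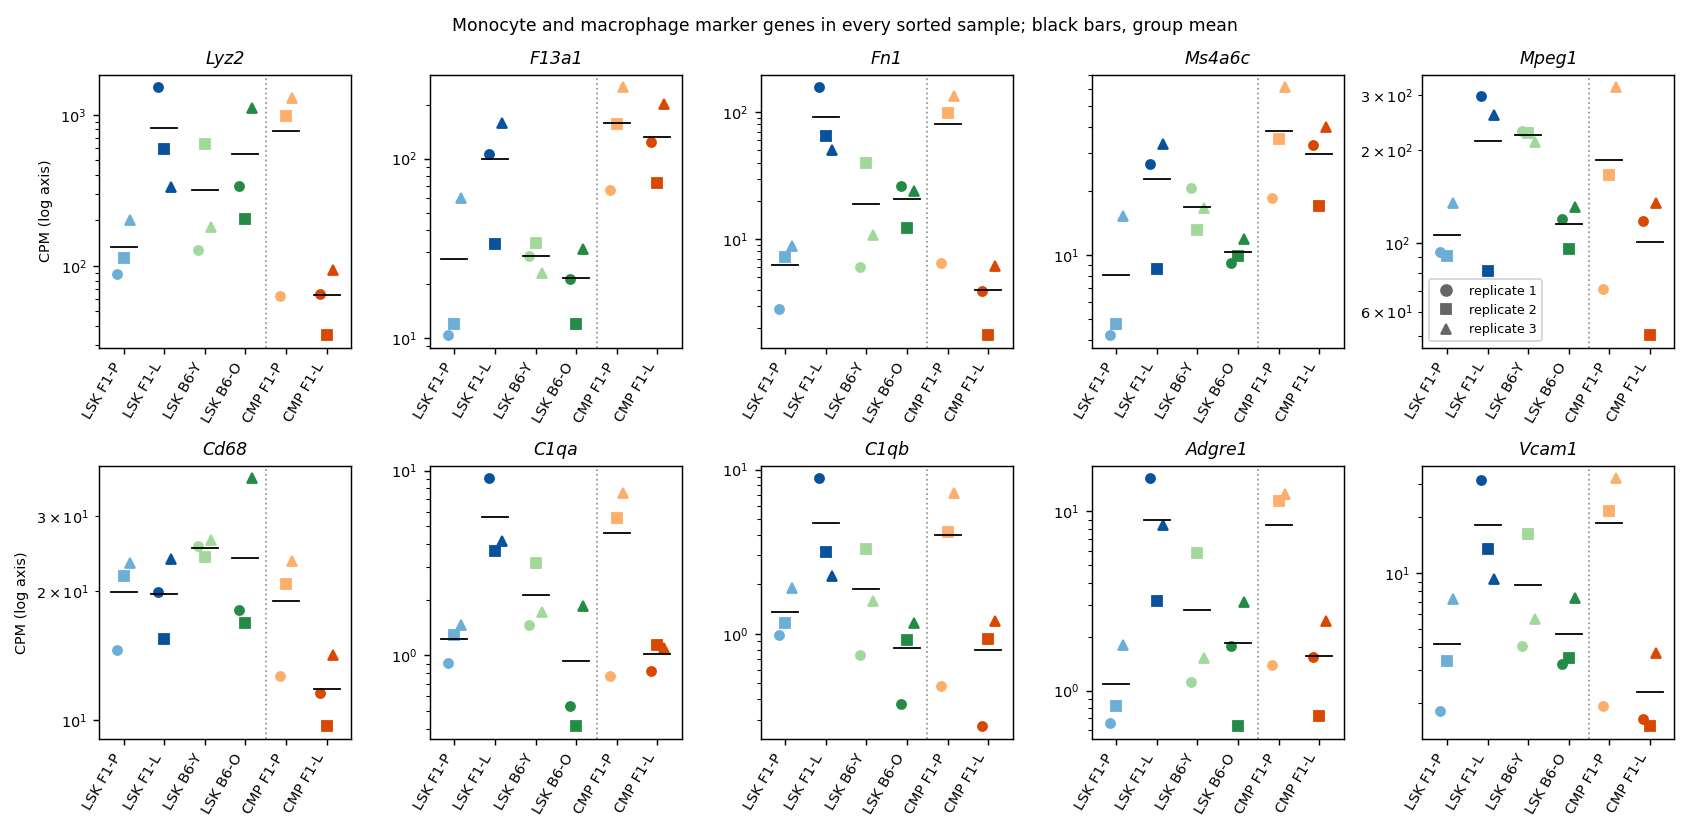
Level of each of the 10 marker genes in CPM, on a log axis, in every LSK and CMP sample, with the replicate number as the marker shape, a black bar for the group mean and a dotted line between the separately scaled tables. Lyz2, Fn1, C1qa, C1qb, Adgre1 and Vcam1 were higher in every F1-L than in every F1-P LSK sample, and in CMPs F1-P replicates 2 and 3 stood above the rest for the same genes.

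The comparison of F1-L with F1-P LSK asks whether the markers differ between mice with lupus and prediseased mice. A gene was called at an adjusted p of at most 0.05 with a fold change above 1.5, in limma fitted to log2(CPM + 1). None of the 10 markers was called, and 4 of the 14332 genes tested were (0.0279%). At an unadjusted p under 0.05 there were 7 of the 10 markers and 12.8% of all genes. The median log2 fold change of the markers was 1.68, against -0.01 over all genes. With only 3 samples against 3, an exact permutation test could not give a p below 0.1, and none was run. Nothing in the labels says that the samples came from separate mice, so the p-values measure only the spread between these samples, which may be technical.

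Fn1, Lyz2, C1qa, C1qb, Adgre1 and Vcam1 did not overlap between the groups. Fn1 encodes fibronectin, a matrix glycoprotein that monocytes secrete and that spans 71585520 to 71653200 on chromosome 1. Fn1 had 158, 65.4 and 49.9 CPM in F1-L replicates 1, 2 and 3 and 2.84, 7.18 and 8.79 CPM in F1-P replicates 1, 2 and 3. Every F1-L sample lay above every F1-P sample, and the log2 fold change was 3.59 (SE 0.498, limma adjusted p = 0.164). Lyz2, lysozyme M, at 117277331 to 117282321 on chromosome 10, had 1529.7, 595 and 334 CPM in F1-L and 88.3, 112 and 199.98 CPM in F1-P. The groups did not overlap, and the log2 fold change was 2.41 (SE 0.558, limma adjusted p = 0.188).

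C1qa and C1qb encode chains of C1q, the part of the first complement component that binds immune complexes and dying cells. They lie close together on chromosome 4 (136895917 to 136898803 and 136880129 to 136886187). C1qa had 9.09, 3.66 and 4.13 CPM in F1-L and 0.907, 1.28 and 1.46 CPM in F1-P. C1qb had 8.85, 3.14 and 2.25 CPM in F1-L and 0.989, 1.17 and 1.89 CPM in F1-P. Both were higher in every F1-L sample, with log2 fold changes of 1.5 (SE 0.308) and 1.14 (SE 0.410) and limma adjusted p of 0.172 and 0.317. C1qc, the remaining chain, was at 5.38 ± 3.52 CPM in F1-L and 0.970 ± 0.380 CPM in F1-P (SD, n = 3).

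Adgre1, which encodes the F4/80 antigen of macrophages (chromosome 17, 57358691 to 57483527), had 15.3, 3.18 and 8.40 CPM in F1-L and 0.660, 0.817 and 1.80 CPM in F1-P. Vcam1, the ligand of the integrin made of the Itga4 and Itgb1 products (chromosome 3, 116109949 to 116129688), had 31.5, 13.4 and 9.25 CPM in F1-L and 1.81, 3.38 and 7.29 CPM in F1-P. Neither gene overlapped between the groups. The log2 fold changes were 2.08 (SE 0.484) for Adgre1 and 1.85 (SE 0.522) for Vcam1, with limma adjusted p of 0.189 and 0.226. F1-L replicate 1 was the highest sample for all 6 of these genes.

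The other 4 markers overlapped between F1-L and F1-P. F13a1, the A subunit of coagulation factor XIII (chromosome 13, 36867178 to 37050244), had 106, 33.5 and 157 CPM in F1-L and 10.3, 11.96 and 60.5 CPM in F1-P. Ms4a6c, a membrane protein gene of the MS4A family (chromosome 19, 11469366 to 11482192), had 26.6, 8.55 and 33.0 CPM against 4.20, 4.73 and 15.2 CPM. In both genes F1-L replicate 2 lay below F1-P replicate 3, although F1-L replicate 2 was above every F1-P sample for Fn1 and Lyz2. Mpeg1, the gene of the pore-forming perforin-2 (chromosome 19, 12460779 to 12465283), was at 213 ± 116 CPM in F1-L and 106 ± 24.9 CPM in F1-P. Cd68, a lysosomal glycoprotein gene (chromosome 11, 69664213 to 69666153), was at 19.7 ± 4.13 and 19.9 ± 4.67 CPM, with a log2 fold change of -0.01 (SE 0.224).

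Of the 10 markers, 6 were higher in every F1-L than in every F1-P sample, a pattern held by 10.4% of all genes tested. The same 6 genes, Adgre1, C1qa, C1qb, Fn1, Lyz2 and Vcam1, were called higher by the likelihood ratio test of edgeR on the recovered reads, the model the authors name. That test called 4.58% of all genes, 494 higher and 163 lower. DESeq2 called 6 markers and edgeR's quasi-likelihood test 0. Over every leave-one-out run of limma none was called, while the log2 fold change of Fn1 stayed between 3.11 and 3.93, that of Lyz2 between 1.82 and 2.91 and that of C1qa between 1.15 and 1.71. Without F1-L replicate 1 the count also stayed at 0. The 11 neutrophil genes had higher means in F1-L as well, 10 of them without overlap. Limma called 0 of them, 11 had an unadjusted p under 0.05, and edgeR's likelihood ratio test called 11 higher. Their median log2 fold change was 3.00, and their summed level was 1983 to 12373 CPM in F1-L and 301 to 1281 CPM in F1-P. None of the 11 was at 0 in any group. Genes of other cells moved too. All 8 plasma cell and all 8 B cell genes had negative log2 fold changes, with medians of -0.87 and -1.29. The 5 megakaryocyte genes tested had positive ones, with a median of 1.57. Limma called 0 in these 3 lists, with 3, 5 and 5 at an unadjusted p under 0.05. The likelihood ratio test called 2 plasma cell and 1 B cell genes lower and 3 megakaryocyte genes higher. The part of all these genes in the marker values was not tested.

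Further genes of the same cells and pathways, none of them among the 10, were taken from fixed lists. Of 18 further marrow macrophage genes in the table, 16 were tested and 1, Apoe, rose in F1-L (41.4 ± 3.73 against 15.7 ± 1.26 CPM, log2 fold change 1.34, limma adjusted p = 0.0496). Apoe encodes apolipoprotein E, a lipid carrier that macrophages secrete. This call was not stable, since limma called 0 genes higher without F1-L replicate 1, F1-L replicate 2 or F1-P replicate 2 and with a replicate block. The median log2 fold change of these 16 genes was 0.58, and 9 of them were higher without overlap. An unadjusted p under 0.05 was reached by 9 of them, and edgeR's likelihood ratio test called 7 higher. Of 19 further monocyte genes tested none was called, with 8 at an unadjusted p under 0.05, 7 called higher by edgeR's likelihood ratio test and a median of 0.60. The log2 fold change was positive for 15 and negative for 4 of them. The 2 of highest mean CPM overlapped between the groups, Nr4a1 with a log2 fold change of -0.34 and Irf8 with 0.35. The summed level of the list was not higher in F1-L, with 2187 to 2848 CPM against 2664 to 2925 CPM in F1-P. Among 9 complement genes tested none was called, with 6 at an unadjusted p under 0.05 and 4 called higher by edgeR's likelihood ratio test. C3, the central complement component, had 148 ± 93.2 CPM in F1-L and 21.0 ± 17.8 CPM in F1-P without overlap. The 8 adhesion genes that include the partners of Vcam1 and Fn1 had a median of -0.01, and 1 was called higher by edgeR's likelihood ratio test. Itga4 was at 425 ± 61.8 CPM in F1-L and 458 ± 23.96 CPM in F1-P. The 12 lysosome genes, the compartment of the Cd68 protein, had a median of 0.03, and 0 were called by limma or by edgeR's likelihood ratio test.

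**Figure D2:**
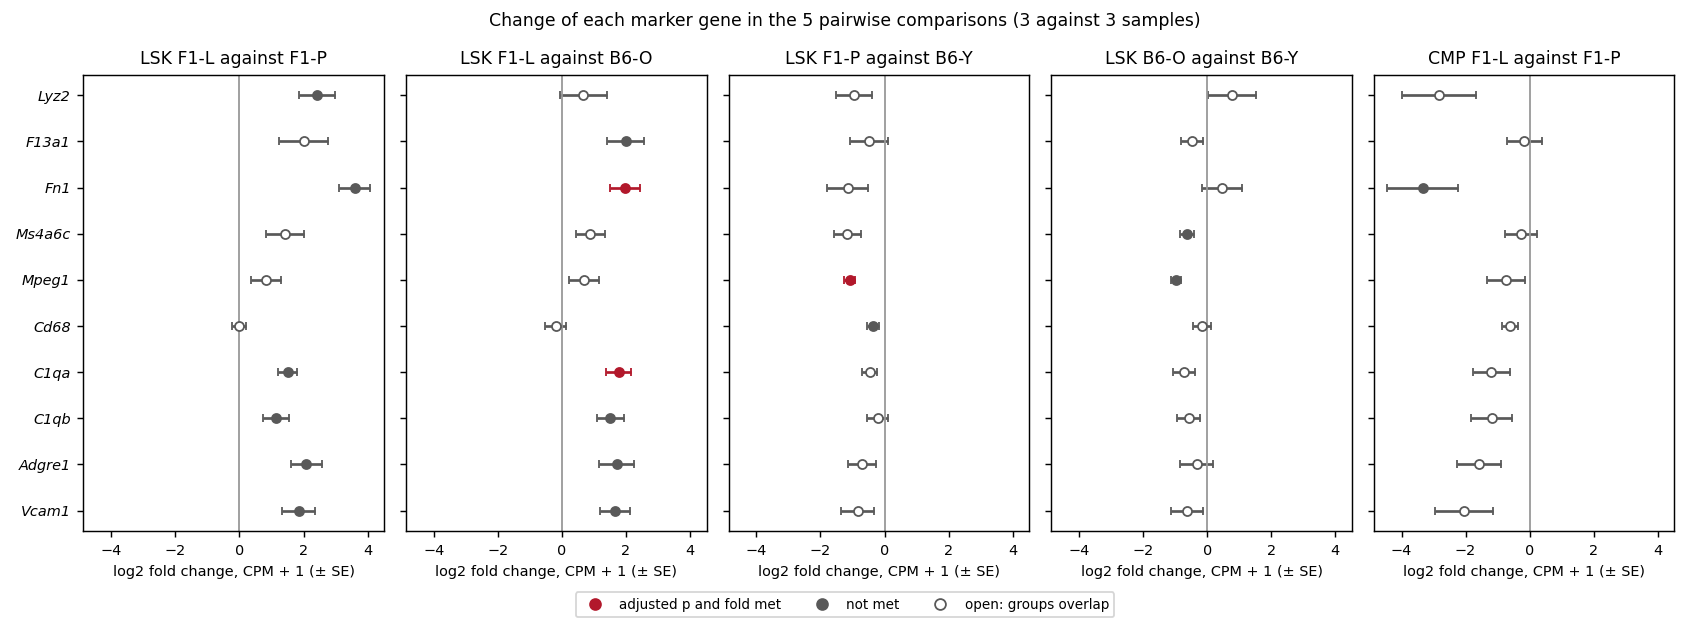
Log2 fold change of log2(CPM + 1) for the 10 marker genes in the 5 pairwise comparisons, with bars of 1 SE, red for the called genes and open symbols where the groups overlapped (3 against 3 samples). Fn1 and C1qa were called against B6-O and Mpeg1 was called lower in F1-P than in B6-Y, while in CMPs all 10 points lay below 0.

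F1-L and B6-O LSK compare mice with lupus with C57BL/6 of the same age, and the comparison shares its F1-L samples with the one above. Fn1 and C1qa rose, 2 of the 10 markers, where 11.6% of 14381 genes were called, 1128 of them higher and 539 lower. Fn1 had 26.0, 12.3 and 23.8 CPM in B6-O, all below the 49.9 to 158 CPM of F1-L, and its log2 fold change was 1.97 (SE 0.458, limma adjusted p = 0.0352). C1qa had 0.529, 0.411 and 1.84 CPM in B6-O against 3.66 to 9.09 CPM in F1-L, with a log2 fold change of 1.77 (SE 0.387, limma adjusted p = 0.0287). In all, 6 markers were higher in every F1-L sample, where 17.5% of all genes were: Fn1, C1qa, C1qb, Adgre1, Vcam1 and F13a1.

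Those 4 uncalled genes lay between adjusted p values of 0.0627 (C1qb) and 0.0908 (Adgre1) in limma. F13a1 took the place that Lyz2 had in the earlier comparison. It had 21.3, 11.9 and 31.1 CPM in B6-O, with a log2 fold change of 1.99 (SE 0.582, limma adjusted p = 0.0719). Lyz2 overlapped, as B6-O replicate 3 held 1104 CPM and replicates 1 and 2 held 340.03 and 206 CPM, and its log2 fold change was 0.66 (SE 0.735). The neutrophil genes overlapped as well, with 832 to 10719 CPM in B6-O and 0 of 11 genes called by limma or by edgeR's likelihood ratio test, 0 of them at an unadjusted p under 0.05.

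The call of Fn1 and C1qa depended on the libraries. No marker was called without F1-L replicate 1, without F1-L replicate 3, without B6-O replicate 1 or without B6-O replicate 2. Without F1-L replicate 2 limma called F13a1, Mpeg1 and Ms4a6c instead, and without B6-O replicate 3 it called C1qa, Fn1 and Vcam1. Without both F1-L replicate 1 and B6-O replicate 3, the LSK libraries with the highest summed neutrophil genes, it called Fn1 and Vcam1 of the 8 markers that could then be tested. With all 12 LSK samples in the fit C1qa and C1qb were called and Fn1 was not. With edgeR's likelihood ratio test 6 markers were called higher, all but Lyz2, Ms4a6c, Mpeg1 and Cd68. Beside them 15.2% of all genes were called, 1336 higher and 857 lower.

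Other lists are set beside the 11.6% of all genes called in either direction in this comparison, and whether their shares differ from it was not tested. Of the 19 further monocyte genes 7 rose in F1-L, among them Ly6c2, the Ly6C antigen of inflammatory monocytes (314 ± 86.2 against 54.9 ± 58.6 CPM), Cd14, a lipopolysaccharide co-receptor (40.7 ± 19.2 against 3.63 ± 2.79 CPM), and Ccr2, the chemokine receptor through which monocytes leave the marrow (90.2 ± 47.6 against 23.7 ± 12.98 CPM). Ctss, Sirpa, Ace and Ms4a6d were the other 4. Of these 7 genes, Ly6c2, Ctss, Sirpa, Ccr2 and Cd14 were also called higher in NZBW/F1 over both ages, a comparison that includes these samples. Ly6c2 was at 533 ± 178 CPM in F1-P LSK. Of the 16 marrow macrophage genes 5 rose and 1 fell. Mrc1, the mannose receptor, had 10.4 ± 3.93 against 1.02 ± 0.396 CPM, and Axl, a receptor for the uptake of dying cells, had 34.8 ± 5.05 against 10.2 ± 0.855 CPM. Cd5l, Hmox1 and Siglec1 were the others that rose. Apoe fell, with 41.4 ± 3.73 CPM in F1-L and 181 ± 67.1 CPM in B6-O. Of the 9 complement genes C2 and C4b rose, of the 8 adhesion genes Itgb3, and of the 12 lysosome genes Lgmn. Markers of other cells moved in the same comparison. Of 8 plasma cell genes 7 rose, with a median log2 fold change of 3.39 and a summed level of 9659 to 12909 CPM in F1-L and 252 to 2521 CPM in B6-O, and of 6 T and NK cell genes 3 rose. Their part in the values of the monocyte and macrophage genes was not tested. The marrow macrophage gene Vsig4 was at 0 in all B6-O samples.

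F1-P and B6-Y LSK compare the strains before disease. Of the 10 markers 1, Mpeg1, fell, where 16.2% of 14380 genes were called, 889 of them lower and 1442 higher. Mpeg1 had 93.1, 90.5 and 135 CPM in F1-P and 230.3, 226 and 211 CPM in B6-Y, without overlap, and its log2 fold change was -1.08 (SE 0.172, limma adjusted p = 0.00453). All 10 markers had a negative log2 fold change, with a median of -0.77 against -0.04 over all genes. Mpeg1 and Cd68 were lower in every F1-P sample, where 18.1% of all genes were. Cd68 was at 19.9 ± 4.67 CPM in F1-P and 25.3 ± 1.17 CPM in B6-Y (SD, n = 3), with a limma adjusted p of 0.261. When all 12 LSK samples shared 1 estimate of the spread, Mpeg1 was no longer called, with an adjusted p of 0.0739. Without F1-P replicate 3 limma called F13a1, Mpeg1 and Ms4a6c.

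Genes of the same cells were called in both directions. Of 15 further monocyte genes tested 3 rose in F1-P (Ly6c2, Ctss and Klf4) and 2 fell (Irf8 and Cx3cr1). Irf8, the transcription factor of monocyte and dendritic cell fate, had 197 ± 18.7 CPM in F1-P and 349 ± 29.8 CPM in B6-Y. Ly6c2 had 533 ± 178 CPM against 64.5 ± 28.5 CPM. In the same comparison all 8 plasma cell genes rose, with a median log2 fold change of 3.10 and summed levels of 14568 to 37689 CPM in F1-P and 796 to 1993 CPM in B6-Y, and 3 of 6 T and NK cell genes rose. Their part in these values was not tested. Of 14 macrophage genes tested Apoe and Cd5l fell, and of 7 complement genes C2 rose and Cfp fell. Among the lysosome genes, Ctsz and Lgmn rose.

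B6-O and B6-Y LSK show the markers with age in C57BL/6. None of the 10 was called, as none of the 14005 genes tested was in limma (0%), with 2 markers and 6.62% of genes at an unadjusted p under 0.05. Mpeg1 had 119, 95.7 and 130.4 CPM in B6-O, all below the 211 to 230.3 CPM of B6-Y, with a log2 fold change of -0.96 (SE 0.159, limma adjusted p = 0.167). Ms4a6c was also lower in every B6-O sample, at 10.3 ± 1.44 against 16.8 ± 3.77 CPM, so 2 markers were separated where 5.57% of all genes were. The edgeR likelihood ratio test and DESeq2 each called Mpeg1 lower. So did limma once B6-O replicate 3 was left out, with an adjusted p of 0.0482. B6-O replicate 3 was the highest sample of its group for 9 of the 10 markers, Fn1 being the exception.

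The change from the younger to the older group was then compared between the strains. The interaction was positive for all 10 markers, with a median of 2.13 on the log2 scale against 0.00 over all genes. None was called by limma among 15084 genes (0%), although 8 of the 10 had an unadjusted p under 0.05, as did 3.92% of all genes. The estimate was 3.13 (SE 0.885, limma adjusted p = 0.976) for Fn1 and 2.23 (SE 0.484, limma adjusted p = 0.609) for C1qa. DESeq2 called C1qa (adjusted p = 0.0392) and edgeR's likelihood ratio test called 0 markers. Without F1-L replicate 2 limma called Mpeg1. Over both ages together, NZBW/F1 and C57BL/6 LSK differed in 19.0% of 15084 genes and in 0 of the 10 markers, with 0 at an unadjusted p under 0.05 and 0 called by edgeR's likelihood ratio test or DESeq2. The median of the markers was 0.41. Of 19 further monocyte genes tested limma called 6 higher in NZBW/F1 (Klf4, Ly6c2, Sirpa, Ctss, Ccr2 and Cd14) and 0 lower. Over all genes it called 1801 higher and 1067 lower.

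F1-L and F1-P CMPs compare lupus with prediseased mice in committed progenitors, and all 10 markers had a negative log2 fold change, with a median of -1.19 against 0.04 over all genes. None was called by limma, where 1 of 12926 genes was (0.00774%), the collagen gene Col1a1, and 2 markers and 9.80% of genes had an unadjusted p under 0.05. The edgeR likelihood ratio test called 2 markers lower, Fn1 and Lyz2, beside 2.38% of all genes (274 lower and 34 higher). DESeq2 called Vcam1 in addition to those.

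The F1-P libraries were not alike. Fn1 had 6.48, 98.7 and 135 CPM in F1-P replicates 1, 2 and 3 and 3.91, 1.75 and 6.17 CPM in F1-L, with a log2 fold change of -3.34 (SE 1.10, limma adjusted p = 0.453). It was the only 1 of the 10 markers without overlap, where 6.57% of all genes were lower in every F1-L sample. Lyz2 had 63.1, 987 and 1295 CPM in F1-P and 64.9, 34.8 and 93.4 CPM in F1-L, so F1-P replicate 1 lay among the F1-L samples. Vcam1 had 1.92, 21.6 and 32.4 CPM in F1-P and 1.64, 1.497 and 3.73 CPM in F1-L. C1qa, C1qb and Adgre1 showed the same split, with F1-P replicates 2 and 3 above every other CMP library.

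The other 4 markers differed less between the groups. F13a1 had 66.9, 155 and 251 CPM in F1-P and 123, 72.9 and 202 CPM in F1-L, with a log2 fold change of -0.17 (SE 0.554). Ms4a6c was at 38.2 ± 21.7 CPM in F1-P and 29.9 ± 11.8 CPM in F1-L, Mpeg1 at 185 ± 125 and 101 ± 44.4 CPM and Cd68 at 19.0 ± 5.63 and 11.8 ± 2.27 CPM. Per kilobase, F13a1 was the third of the 10 genes in both CMP groups, with 23.4 and 19.7 CPM, and the fourth or the fifth in LSK. The 11 neutrophil genes also had lower means in F1-L CMPs, their median log2 fold change being -4.21, and so did the 6 plasma cell genes tested and 8 B cell genes, 7 of them without overlap and with a median of -2.32. Of 7 erythroid genes 5 had lower means, with a median of -2.36, and limma called none of the neutrophil, plasma cell, B cell and erythroid genes. Of these, 11, 4, 7 and 4 had an unadjusted p under 0.05, and edgeR's likelihood ratio test called 11, 4, 6 and 4 lower. Their part in these values was not tested.

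Leaving out F1-P replicate 1 turned the CMP comparison into 6 called markers (Adgre1, C1qa, C1qb, Fn1, Lyz2 and Vcam1) with 434 genes called in all. Leaving out F1-P replicates 2 and 3 left 1 F1-P sample, assumed to vary like the F1-L samples, and the log2 fold change was then -0.08 for Lyz2, -0.70 for Fn1, 0.05 for Adgre1 and 0.11 for Vcam1, with 0 markers called. Of the 17 monocyte, 11 macrophage, 6 complement, 8 adhesion and 12 lysosome genes tested in CMPs, limma called 0, with 4, 1, 1, 0 and 0 at an unadjusted p under 0.05. The likelihood ratio test of edgeR called 3 monocyte genes lower and 0 of the other 4 lists. Among the 3 was Nr4a1, with 110 ± 47.3 CPM in F1-L and 533 ± 166 CPM in F1-P without overlap. Its log2 fold change was -2.34 (limma adjusted p = 0.352, likelihood ratio adjusted p = 4.29e-05).

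Across the 12 LSK samples some of the 10 markers followed each other more closely than others. Pearson correlations of log2(CPM + 1) are given here as a description over samples that share groups and depth. C1qa followed C1qb (r = 0.93), Adgre1 (0.91) and Vcam1 (0.91). Lyz2 followed Fn1 (0.89), Vcam1 (0.83) and the summed neutrophil genes (0.98). With the neutrophil genes Fn1 had 0.87, Vcam1 0.83, Adgre1 0.80, C1qa 0.67, C1qb 0.65, F13a1 0.57, Mpeg1 0.28 and Cd68 0.27. Ms4a6c followed Mpeg1 (0.87) and F13a1 (0.85), and had 0.43 with Lyz2 and 0.38 with the neutrophil genes. F13a1 followed the summed genes of primary granules (Mpo, Elane, Prtn3, Ctsg and Ms4a3), which progenitors themselves make, with 0.93. Cd68 had 0.27 with Lyz2 and 0.02 with Fn1. With the plasma cell genes r ran from -0.10 to 0.42 over the 10 markers. With the summed LSK identity genes it ran from -0.74 (C1qa) and -0.67 (C1qb) to 0.11 (Cd68).

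**Figure D3:**
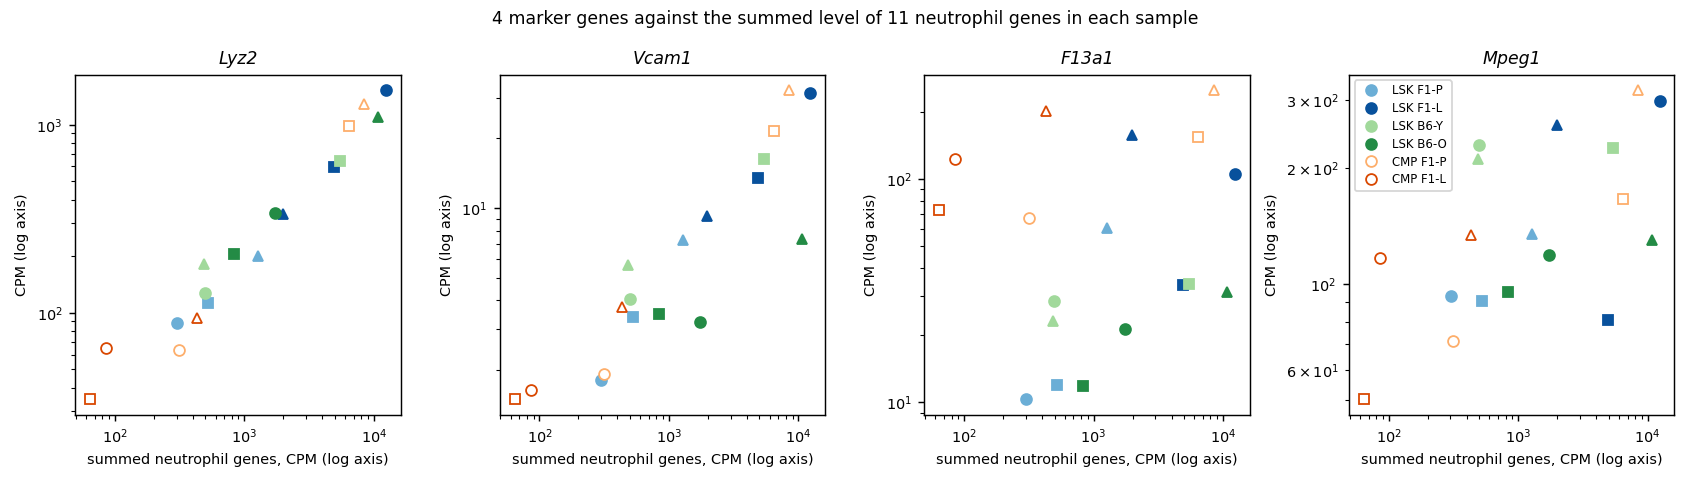
CPM of Lyz2, Vcam1, F13a1 and Mpeg1 against the summed CPM of 11 neutrophil genes, both on log axes, with filled symbols for the 12 LSK and open symbols for the 6 CMP samples and with circles, squares and triangles for replicates 1, 2 and 3. Over the LSK samples r was 0.98 for Lyz2, 0.83 for Vcam1, 0.57 for F13a1 and 0.28 for Mpeg1 (log2 scale), and Vcam1 in B6-O replicate 3 lay below the other libraries with high summed neutrophil genes.

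The genes outside the set whose pattern was most like the markers were taken over the 12 LSK samples, as a description with no test. Lyz2, F13a1, Fn1 and Ms4a6c were grouped beforehand as monocyte markers, and their patterns differed among themselves. Lyz2 had r = 0.43 with Ms4a6c and 0.98 with the summed neutrophil genes, so the group is not a measure of monocytes alone. Its mean standardised pattern was closest to Abcd2 (r = 0.962, Spearman 0.965), then Stx7, Gsr, Fcgr2b and March1, the last with 0.932. Without F1-L replicate 1 and F1-P replicate 1, the samples farthest from the median, Abcd2 had 0.908. Mpeg1 and Cd68 were closest to Nckipsd (0.914) and Irf8 (0.882), followed by Siglech, Cyp27a1 and Clec9a. Siglech and Clec9a mark plasmacytoid and conventional dendritic cells. Without the samples farthest from the median, Nckipsd had 0.886 and Irf8 0.944. The marrow macrophage markers C1qa, C1qb, Adgre1 and Vcam1 were closest to Fgr, a Src-family kinase gene of myeloid cells (0.944), and Slc40a1, the iron exporter ferroportin of macrophages (0.938), then Sgms2, Gpr141 and F10. Without F1-L replicate 1 and B6-Y replicate 2 the values of Fgr and Slc40a1 were 0.871 and 0.847.

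Reads of 1 gene relative to another in the same library do not depend on how a table was scaled, so they can be set side by side for LSK and CMPs. These ratios were chosen after the values had been seen. Fn1 reads were 10.3, 10.99 and 14.95% of the Lyz2 reads in F1-L LSK and 10.27, 9.996 and 10.41% in F1-P CMP replicates 1, 2 and 3. They were 3.22 to 6.38% in F1-P LSK, 2.155 to 7.65% in C57BL/6 LSK and 5.045 to 6.60% in F1-L CMPs. F1-L LSK lay above F1-P LSK without overlap in this ratio too, and in CMPs F1-P lay above F1-L, F1-P replicate 1 included. None of these ratios was tested.

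Vcam1 stayed in a narrow band against Lyz2, with 2.05 to 3.64% in all NZBW/F1 LSK and 2.19 to 4.30% in CMPs, although Lyz2 itself differed 20.53-fold between the F1-P CMP libraries. B6-Y lay in the same band, with 2.55 to 3.17%, and in B6-O the values were lower, with 0.663 to 1.69%. C1qa was likewise lowest in B6-O, at 0.156 to 0.199% of Lyz2, against 0.496 to 1.14% in B6-Y and 0.594 to 1.24% in F1-L LSK. F13a1 spread widely, with 190.2, 209.6 and 215.9% of Lyz2 in F1-L CMPs, 106% in F1-P CMP replicate 1, 15.7 and 19.4% in replicates 2 and 3, and 2.82 to 47.1% in LSK. S100a9, the neutrophil gene, was 203, 204.6 and 154.2% of Lyz2 in F1-L LSK, 87.4 to 196.7% in F1-P LSK and 82.3 to 244.6% in B6-Y. In B6-O it was 115 to 317.5%, the highest in replicate 3. In CMPs it was 148.9, 182.5 and 179.8% in F1-P replicates 1, 2 and 3 and 35.4 to 126% in F1-L. RNA of CD11b and of Ly6G, both stained to leave cells out of the LSK gate (Ly6G through Gr-1), was present as well, with Itgam at 17.7 to 71.2 CPM in F1-L and 5.52 to 13.75 CPM in F1-P LSK and Ly6g at 5.48 to 44.8 and 1.20 to 5.98 CPM. C57BL/6 LSK overlapped both, with Itgam at 13.2 to 46.1 CPM and Ly6g at 0.806 to 26.7 CPM.

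**Figure D4:**
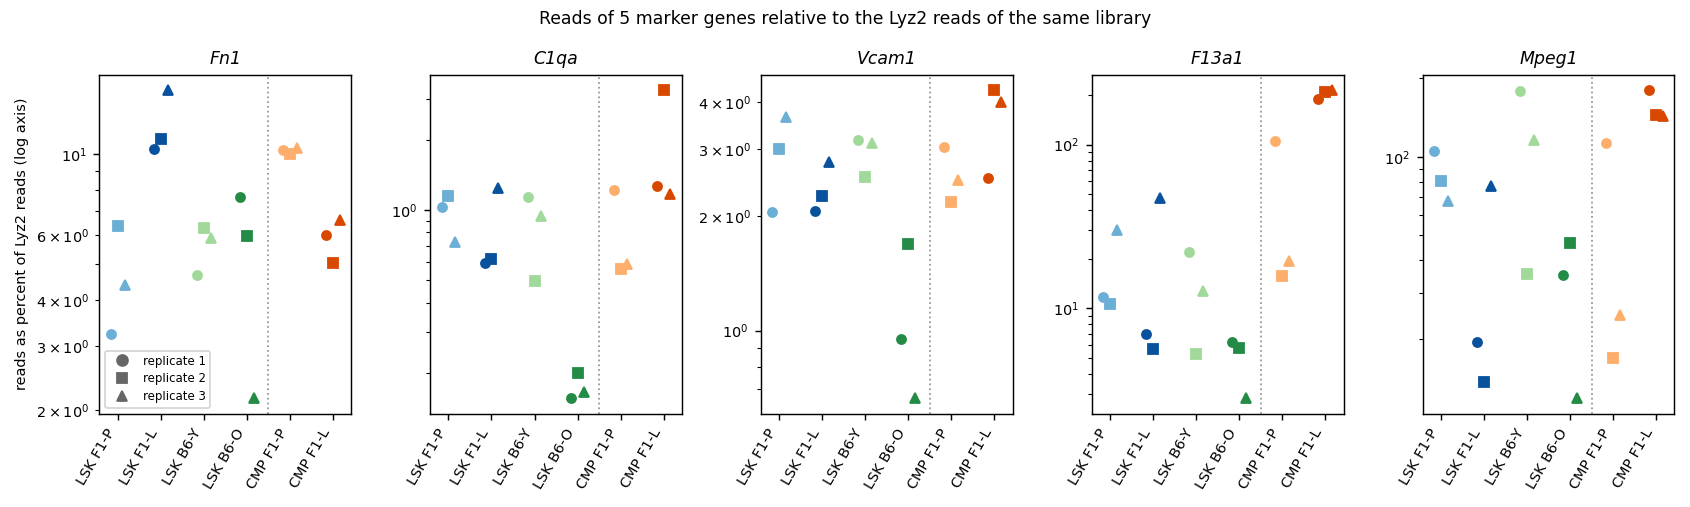
Reads of Fn1, C1qa, Vcam1, F13a1 and Mpeg1 as a percent of the Lyz2 reads of the same library, on a log axis, for every sample, with the replicate number as the marker shape and a dotted line between LSK and CMPs. Fn1 lies between 9.996 and 14.95% in F1-L LSK and F1-P CMPs, Vcam1 and C1qa are lowest in B6-O, and F13a1 reaches 190.2 to 215.9% in F1-L CMPs.

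Some of the markers share sequence with other genes, which limits their counts. Of the 75-base windows of the Ms4a6c transcripts 47.7% also occur in transcripts of other genes, among them Ms4a6b and the overlapping antisense gene BE692007, so the level of Ms4a6c is uncertain. Lyz2 shares 5.96% of its windows with Lyz1, which had at most 26 reads a library against 674 or more for Lyz2. Fn1 shares 1.5%, with Qsox1 and with Apol7d, which overlaps it on the other strand. The libraries did not keep strand, so reads of overlapping genes cannot be told apart for Fn1, F13a1, Ms4a6c and Vcam1. The other 6 markers overlap no annotated gene.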

How the data were processed

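The authors sorted LSK and CMPs from mouse bone marrow, prepared mRNA libraries with a TruSeq kit, sequenced single-end reads of 75 bases, aligned them with STAR 2.6 to mm10 (GRCm38), counted them per gene with HTSeq and used edgeR. The deposited values are a signal that the authors made comparable within a table, CPM of a scaled library size, already without unexpressed genes. The test plan had assumed plain CPM. 100.0% of values were whole multiples of 1 read within 0.1 read, so edgeR 4.0.16 and DESeq2 1.42.0 were run on recovered reads as alternatives. Groups and replicates follow the labels.

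Symbols and positions come from GENCODE M21. The main test was limma 3.58.1 (R 4.3.3), lmFit and eBayes with a trend, on log2(CPM + 1), over genes that reached a CPM of 1 in 3 or more samples of the groups compared, with Benjamini-Hochberg adjustment over all genes tested. A fold change on that scale understates the change of low genes. The scripts were tested on simulated data. Python 3.11.15 was used for tables and figures. The marker genes and gene lists were chosen with earlier results of these data known. In addition to the 10 markers, the text names genes of a list that were called, otherwise some of those of highest mean CPM, though not for every list and comparison. It also names the 5 genes of mean CPM of at least 5 most like each set of markers. Itgam, Ly6g, C1qc, Lyz1, single examples from longer lists and the ratios within a library were added after their values were seen. Samples of a group differed by more than sampling noise, so none was merged. A result for a lysosome gene is not reported here.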

Additional observations from a re-analysis of the deposited data

Results flagged for a closer look

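Fn1 stood out as the only marker whose F1-L and F1-P samples were separated in both sorted populations, in opposite directions. In LSK every F1-L sample lay above every F1-P sample (log2 fold change 3.59), and in CMPs every F1-L sample lay below every F1-P sample (log2 fold change -3.34). Limma called neither (adjusted p of 0.164 and 0.453), and the CMP value was -0.70 without F1-P replicates 2 and 3. The opposite signs were not particular to Fn1, since 9 of the 10 markers were positive in LSK and all 10 negative in CMPs, and the neutrophil genes had medians of 3.00 and -4.21. The difference between LSK and CMPs was not tested, since the tables were scaled separately. In CMPs the gap between the groups was narrow, from 6.17 CPM in the highest F1-L to 6.48 CPM in the lowest F1-P sample.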

How the results depend on the processing

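The number of markers called was recomputed under each alternative. For F1-L against F1-P LSK it was 0 in limma, 6 by the edgeR likelihood ratio and 6 by DESeq2. For F1-L against B6-O it was 2 in limma, 1 with a minimum mean CPM of 5 and with the quasi-likelihood test, 6 with the likelihood ratio test and with DESeq2, and 0 to 3 over the leave-one-out runs. For F1-P against B6-Y it was 1, 0 with all 12 LSK samples in the fit and 1 to 3 over the leave-one-out runs. For B6-O against B6-Y it was 0, 1 with the likelihood ratio test, with DESeq2 and without the 2 libraries of highest neutrophil level, and 0 to 1 over the leave-one-out runs. For the interaction it was 0, 1 with DESeq2 and 0 to 1 over the leave-one-out runs. In CMPs it was 0, 2 with the likelihood ratio test, 3 with DESeq2 and 0 to 6 over the leave-one-out runs. The cause of these changes was not tested. No count changed for the strains over both ages. With all 12 LSK samples in the fit the count for F1-L against B6-O stayed at 2 with C1qb in place of Fn1. Over all genes, the calls moved from 4 to 657 and 734 (likelihood ratio, DESeq2), to 26 with all 12 LSK samples, to 0 with the replicate block and to 0 to 25 over the leave-one-out runs in F1-L against F1-P LSK. They moved from 1 to 308, 351, and 0 to 434 over the leave-one-out runs in CMPs, from 0 to 114 and 207 in B6-O against B6-Y and from 0 to 10 and 29 for the interaction. In F1-L against B6-O they moved from 1667 to 978 with the minimum mean CPM of 5 and to 448 to 2285 over the leave-one-out runs, in F1-P against B6-Y from 2331 to 927 to 2229 over those runs, and for the strains over both ages from 2868 to 1885 with that minimum and 4813 with no fold change minimum.

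The same replicate numbers occur in every group, and in no comparison was the correlation of same-numbered deviations over genes above 0.1 for every number. For replicates 1, 2 and 3 it was -0.01, -0.04 and 0.03 in F1-L against F1-P LSK, 0.00, 0.06 and 0.05 in F1-L against B6-O, 0.33, 0.32 and 0.07 in F1-P against B6-Y, 0.47, -0.36 and 0.32 in B6-O against B6-Y and -0.45, -0.32 and 0.62 in CMPs. The samples were therefore treated as sharing only a number. With a replicate block, 4 markers were called in F1-L against B6-O (Adgre1, C1qa, F13a1 and Fn1), and the block changed no other marker count. In no comparison did every sample deviate most like its own number.

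Of 1451 marker values under an alternative, 32 changed direction, none of them of a called gene, and the cause was not tested. Without the libraries of highest neutrophil level, chosen after the data were seen, these were Cd68 at 0.13 (F1-L against B6-O), Fn1 at -0.05 (strains over both ages) and, in CMPs, F13a1 at 0.86, Ms4a6c at 0.59, Mpeg1 at 0.38, Adgre1 at 0.05 and Vcam1 at 0.11. For the strains over both ages Ms4a6c was at 0.05, 0.04 and 0.08 with quasi-likelihood, likelihood ratio and DESeq2. Cd68 was at 0.00 in F1-L against F1-P with scaling without immunoglobulin genes. Leave-one-out ranges that crossed 0 were -0.20 to 0.15, -0.39 to 0.14, -0.51 to 0.03 and -0.04 to 0.50 for Cd68 (F1-L against F1-P, F1-L against B6-O, B6-O against B6-Y, interaction), -0.52 to 0.13 for C1qb (F1-P against B6-Y), -0.09 to 1.19 for Fn1 and -0.65 to 0.20 for Adgre1 (B6-O against B6-Y), -0.51 to 0.24 for Lyz2 and -0.41 to 0.11 for Ms4a6c (strains over both ages), and -0.69 to 0.26 for F13a1 and -0.70 to 0.14 for Ms4a6c in CMPs. Depth limits C1qa, C1qb and Adgre1, which had 14 to 39 reads in each F1-P LSK library.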
